A study of Mus musculus with 18 samples.

Results

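Corticosterone replacement was compared with its absence in adrenalectomised mice, in hair follicle stem cells (HFSC), the epithelial cells that regrow the hair follicle. The comparison used 4 of the 18 libraries of the series, 2 from mice whose adrenal glands had been removed (ADX) and 2 from adrenalectomised mice that were also fed corticosterone (ADX+CORT), each chosen by its label. All mice in both groups were wild-type females on a C57BL/6 background, and both groups carried the surgery, so that the hormone was the labelled difference between them. Mice that had a sham operation and kept their adrenal glands (Sham, 2 libraries, same strain, sex and genotype) are given as a reference level. The edgeR p-values and standard errors (SE) come from a fit of all 10 HFSC libraries. These add the Control and GR_KO groups of a deletion experiment, labelled with 6 days of tamoxifen, 2 libraries each. By its title, the series asks how corticosterone acts through Gas6 on the quiescence of these cells. Age, the dose and duration of feeding, the hair cycle stage and the number of mice per library are not given in the sources used here. Where nothing says that the 2 libraries of a group came from separate animals, p-values measure only the spread between these samples, which may be technical.

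The libraries held 14067139 and 17545373 counts in ADX, 18358343 and 18887195 in ADX+CORT, and 16781599 and 14288209 in Sham. All 10 markers of HFSC were measured in each of the 4 compared libraries, the lowest value being 34.6 CPM (a gene's counts relative to the library total, with totals scaled between libraries) for Tcf7l1 in ADX replicate 1. Krt15 and Cd34, the keratin and the surface protein by which bulge cells are recognised, stood at no less than 11439 and 767 CPM. The headers of the counting program name the libraries of these cells as bulge, the niche in which HFSC reside.

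Corticosterone is the main glucocorticoid of mice. It is made in the adrenal cortex and binds the glucocorticoid receptor (encoded by Nr3c1), which then enters the nucleus and raises or lowers the transcription of many genes, among them feedback regulators, metabolic genes and genes of inflammation. HFSC spend most of the hair cycle in a quiescent state with little expression of cell cycle genes, and they enter division when a new growth phase begins.

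In the ADX+CORT libraries, genes of mitosis, replication-coupled histones, ribosomal proteins, the respiratory chain and several inflammatory mediators stood below their ADX levels. Bulge markers, TAM receptors, matrix proteins and proteins of the outer epidermis stood above them. With edgeR's quasi-likelihood test no gene passed an adjusted p of 0.05 among the 15231 tested (0.0% called in each direction). The smallest edgeR adjusted p was 0.0573 and was shared by 77 genes. At an unadjusted p under 0.05, 1489 genes were higher (9.78%) and 1452 were lower (9.53%). DESeq2 called 567 genes higher (3.72%) and 711 lower (4.67%), and edgeR fitted on the 6 libraries of the surgery experiment called 394 higher (2.79%) and 490 lower (3.47%) of 14133. Both of these call 821 genes in common, all 821 in the same direction. Both fits use the same ADX and ADX+CORT libraries, so the shared direction was fixed beforehand and nothing is read from it. Below, a gene is said to be called only with the tool that called it, and all other differences are given as values.

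**Figure D1:**
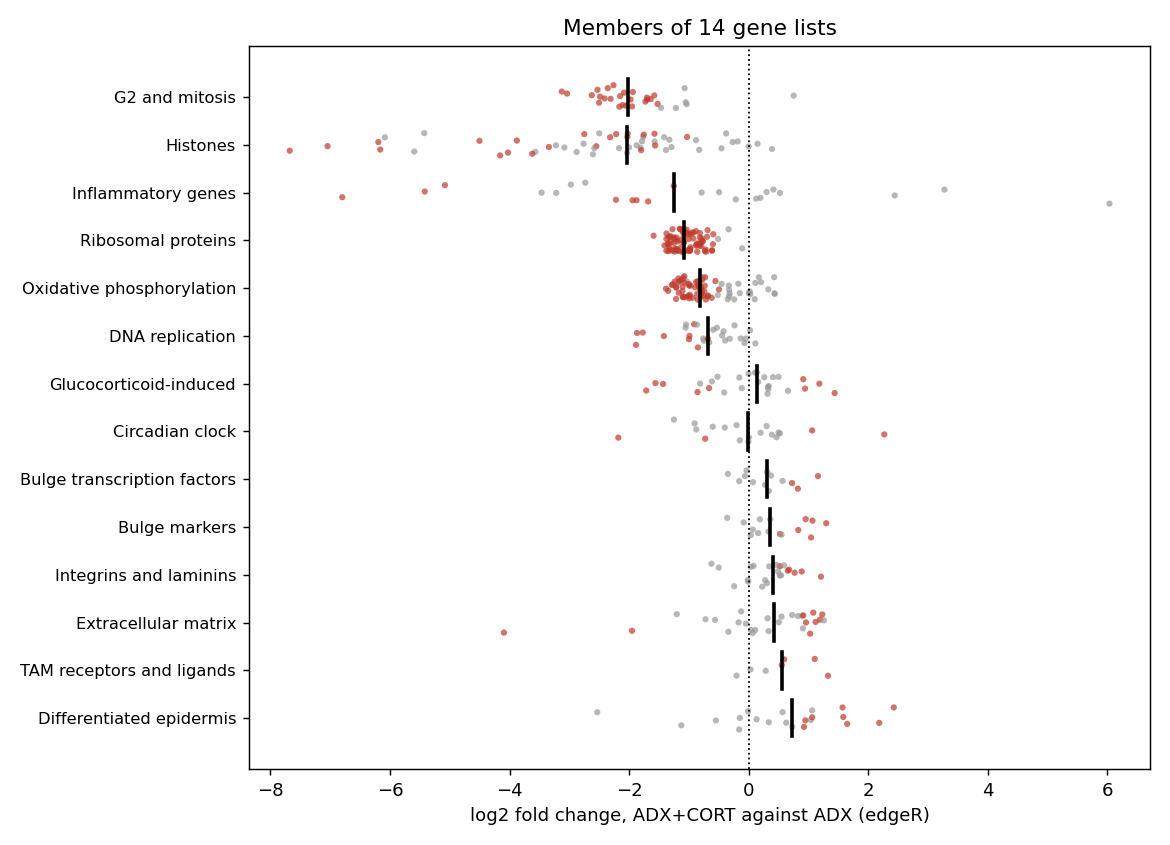
Each point is a gene of a list, placed by its log2 fold change in ADX+CORT against ADX from edgeR (x axis), with an unadjusted p under 0.05 in red and the others in grey. The black bar is the list's median and the dotted line the median of all genes tested (0.00). The list of G2 and mitosis has its median at −2.02, and that of differentiated epidermis at 0.73.

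Genes that act in G2 and mitosis were lower with corticosterone as a group. Of 30 such genes, all 30 were tested, 29 had a lower value and 1 a higher one, against 48.9% lower and 50.1% higher among all genes tested. In 23 of the 30, both ADX+CORT libraries lay below both ADX libraries, which was so for 25.8% of all genes tested. DESeq2 called 18 of them lower and none higher, and 24 had an unadjusted p under 0.05 in edgeR. The median log2 fold change was −2.02 against 0.00 for all genes tested. Fewer cycling cells and less of these RNAs per cell cannot be told apart in bulk libraries.

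The start of 3 of these genes is printed because they share a pair of short motifs that many mitotic genes carry, the CHR element and the CCAAT box. Mcm6, which belongs to replication, and Sgk1, a known target of the glucocorticoid receptor, follow because they carry other motifs, and their values overlapped between the groups. The sequences are from RefSeq on GRCm38.p6, 5′ to 3′ along the gene's strand, and capitals mark each match on either strand: TTTGAA (CHR) and CCAAT in the first 3 genes, TTTGGCGC (an E2F site) and CCAAT in Mcm6, and the glucocorticoid response element in Sgk1, which joins the half-sites AGAACA and TGTTCT with any 3 bases between them. None of the marked matches of different motifs overlap.
Ccnb2: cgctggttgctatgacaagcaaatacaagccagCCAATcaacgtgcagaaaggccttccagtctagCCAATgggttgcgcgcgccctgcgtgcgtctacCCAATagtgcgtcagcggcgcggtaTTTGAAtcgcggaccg
Ube2c: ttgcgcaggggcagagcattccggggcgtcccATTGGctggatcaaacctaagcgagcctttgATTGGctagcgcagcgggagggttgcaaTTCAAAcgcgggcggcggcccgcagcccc
Kif23: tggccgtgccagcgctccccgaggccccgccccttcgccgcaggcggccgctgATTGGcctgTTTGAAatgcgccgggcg
Mcm6: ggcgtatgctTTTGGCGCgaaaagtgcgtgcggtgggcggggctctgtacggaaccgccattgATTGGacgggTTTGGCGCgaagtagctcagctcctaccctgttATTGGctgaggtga
Sgk1: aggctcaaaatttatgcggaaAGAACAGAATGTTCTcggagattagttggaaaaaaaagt
Ccnb2 is shown for chr9:70421535-70421674 (minus strand), Ube2c for chr2:164769809-164769928 (plus), Kif23 for chr9:61946780-61946859 (minus), Mcm6 for chr1:128359706-128359825 (minus) and Sgk1 for chr10:21993680-21993739 (plus). In Ube2c both motifs lie on the opposite strand, where TTTGAA reads TTCAAA and CCAAT reads ATTGG, and so does CCAAT in Kif23 and Mcm6.

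Over 300 bases around each gene start (250 before and 50 after), TTTGAA was present in 18 of the 25 mitotic genes with a RefSeq window (72.0%). It was present in 14.4% of the 11221 tested genes with a window and in 20.2% of all 27025. CCAAT was found in 19 of the 25 (76.0%), against 42.2% of the tested genes. It was not particular to this list, with 13 of 16 clock genes (81.2%), 13 of 21 replication genes (61.9%) and 13 of 24 glucocorticoid-induced genes (54.2%). TTTGGCGC was found in 5 of 21 replication genes (23.8%), against 1.12% of the tested genes, and in 0 of the 25 mitotic genes. Ttk, the mitotic gene with a higher value in ADX+CORT, carries both TTTGAA and CCAAT. A match describes these letters and is not evidence of a bound factor.

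Ube2c, the ubiquitin-conjugating enzyme of the anaphase-promoting complex, stood at 183 and 76.6 CPM in ADX and 26.1 and 15.96 CPM in ADX+CORT. Its log2 fold change was −2.62 (SE 0.52, edgeR adjusted p = 0.0573). Ccnb2, a B-type cyclin that drives entry into mitosis, stood at 83.4 and 38.1 CPM in ADX and 16.2 and 6.62 CPM in ADX+CORT (log2 fold change −2.41, SE 0.53, edgeR adjusted p = 0.0578). For Kif23, a kinesin of the central spindle, the values were 61.1 and 31.1 CPM in ADX and 11.2 and 7.38 CPM in ADX+CORT (log2 fold change −2.31, SE 0.48, edgeR adjusted p = 0.0573). In each of the 3 genes the groups did not overlap, and ADX replicate 1 was the highest library. Birc5, survivin, a member of the chromosomal passenger complex, had 106 and 40.6 CPM in ADX and 20.1 and 10.5 CPM in ADX+CORT (log2 fold change −2.26, SE 0.49, edgeR adjusted p = 0.0575). DESeq2 called all 4 of these genes lower. The largest differences of the list were those of Bub1 and Ndc80, which act at kinetochores (−3.13 and −3.04). Ttk, a kinase of the spindle checkpoint, was the 1 member with a higher value, at 14.6 and 10.2 CPM in ADX and 24.8 and 17.1 CPM in ADX+CORT (log2 fold change 0.75, SE 0.40, edgeR adjusted p = 0.328), and its groups did not overlap. The proliferation marker Mki67 had 179 and 45.7 CPM in ADX and 32.4 and 6.51 CPM in ADX+CORT (log2 fold change −2.53, SE 0.75, edgeR adjusted p = 0.0956), without overlap but with a wide spread in both groups.

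The 30 genes summed to 2143 and 855 CPM in ADX and to 564 and 240 CPM in ADX+CORT, so that the ADX libraries themselves differed more than 2-fold. Sham libraries held 318 and 374 CPM, between the ADX+CORT values. Without ADX replicate 1 the median log2 fold change was −1.21, and without ADX+CORT replicate 1 it was −2.75.

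**Figure D2:**
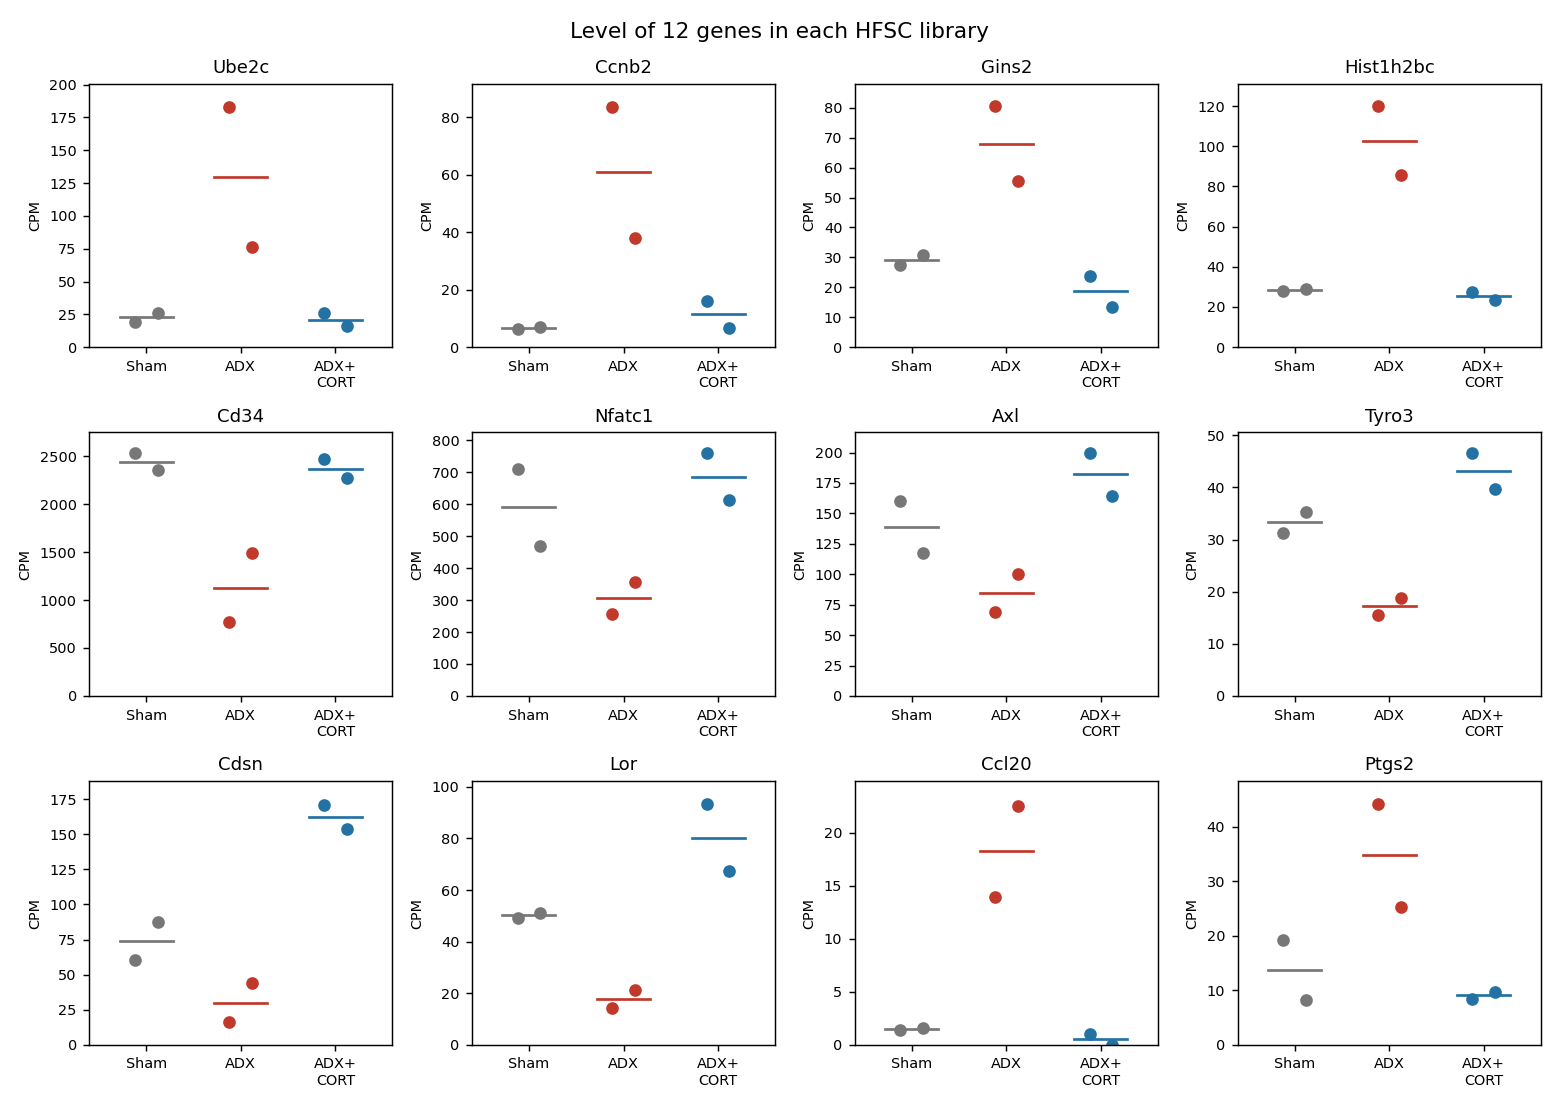
CPM of 12 genes (y axes, linear, starting at 0) in the 6 libraries of the surgery experiment; each point is a library and each line the mean of the 2 libraries of a group. In all 12 genes the ADX+CORT libraries lie wholly above or wholly below the ADX libraries.

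Genes of DNA replication were mostly lower as well. Of 27 tested, 25 had a lower value and 2 a higher one. In 15 the groups did not overlap, all lower, which was so for 25.8% of all genes tested. DESeq2 called 6 lower and none higher, and the median log2 fold change was −0.68. Gins2, a subunit of the replicative helicase complex, stood at 80.5 and 55.5 CPM in ADX and 23.8 and 13.4 CPM in ADX+CORT (log2 fold change −1.87, SE 0.37, edgeR adjusted p = 0.0573). Rfc4, a subunit of the clamp loader, stood at 70.3 and 33.3 CPM in ADX and 16.6 and 13.8 CPM in ADX+CORT (log2 fold change −1.77, SE 0.36, edgeR adjusted p = 0.0573). Tyms, which makes thymidylate, stood at 138 and 81.1 CPM in ADX and 42.1 and 39.9 CPM in ADX+CORT (log2 fold change −1.42, SE 0.32, edgeR adjusted p = 0.062), and Prim1, the catalytic subunit of primase, at 102 and 65.8 CPM in ADX and 40.9 and 43.1 CPM in ADX+CORT (log2 fold change −0.9985, SE 0.27, edgeR adjusted p = 0.0744). These 4 were called lower by DESeq2, and none of their groups overlapped. By contrast the MCM helicase subunits overlapped between groups. Mcm6, whose promoter carries both E2F motifs printed above, stood at 125 and 108 CPM in ADX and 119.8 and 77.7 CPM in ADX+CORT (log2 fold change −0.24, SE 0.29, edgeR adjusted p = 0.716). Mcm2, Mcm3, Mcm4, Mcm5 and Mcm7 had log2 fold changes of −0.42, −0.45, −0.39, −0.13 and −0.07. Without ADX replicate 1 the median of the list was −0.27.

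Replication-coupled histones were also lower. Of 68 histone genes, 53 were tested, of which 50 had a lower value and 2 a higher one, with a median of −2.03. With edgeR fitted on the surgery libraries alone, only 35 histone genes passed the filter on low counts, and the list median was −1.8. The 53 tested genes, and the counts and median taken over them, therefore include genes with few reads in the surgery libraries. In 36 of the 53 tested histone genes both ADX+CORT libraries lay below both ADX libraries, against 25.8% of all genes tested. In none did they lie above both, and DESeq2 called 10 lower and none higher. Hist1h2bc, a core histone gene, stood at 120.1 and 85.5 CPM in ADX and 27.3 and 23.3 CPM in ADX+CORT (log2 fold change −2.02, SE 0.31, edgeR adjusted p = 0.0573), the smallest p among genes that were lower. Linker histone genes behaved alike, with Hist1h1e at 196 and 126 CPM in ADX and 41.1 and 54.1 CPM in ADX+CORT (log2 fold change −1.75, SE 0.30, edgeR adjusted p = 0.0573) and Hist1h1b at 105 and 23.8 CPM in ADX and 3.40 and 3.80 CPM in ADX+CORT (log2 fold change −4.16, SE 0.71, edgeR adjusted p = 0.0573). The values of Hist1h1b in ADX differed more than 4-fold between the 2 libraries. Histone genes have near-identical copies, and the share of each in the counts is uncertain. Outside the list, Hmgb2, a chromatin protein of dividing cells, had 261 and 153 CPM in ADX and 68.9 and 69.2 CPM in ADX+CORT (log2 fold change −1.58, SE 0.27, edgeR adjusted p = 0.0573). Stmn1, which destabilises microtubules, had 301 and 137 CPM in ADX and 64.3 and 53.4 CPM in ADX+CORT (log2 fold change −1.89, SE 0.39, edgeR adjusted p = 0.0573), likewise without overlap. DESeq2 called these 5 genes lower. The histone median was −1.21 without ADX replicate 1 and −1.04 with an offset for gene length and GC content, which is described below.

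Of the D-type cyclins, which act before replication, 2 were lower and 1 higher. Ccnd2, the D-type cyclin with the smallest p, stood at 619.7 and 511 CPM in ADX and 276 and 323 CPM in ADX+CORT (log2 fold change −0.92, SE 0.29, edgeR adjusted p = 0.109) and was called lower by DESeq2. Ccnd1 stood at 122 and 102 CPM in ADX and 75.8 and 61.8 CPM in ADX+CORT (log2 fold change −0.70, SE 0.33, edgeR adjusted p = 0.261) and was not called. Ccnd3 was higher, at 51.4 and 92.7 CPM in ADX and 104 and 141 CPM in ADX+CORT (log2 fold change 0.77, SE 0.28, edgeR adjusted p = 0.155), and Cdkn2b, an inhibitor of the kinases that D-type cyclins activate, stood at 7.74 and 9.59 CPM in ADX and 17.3 and 21.1 CPM in ADX+CORT (log2 fold change 1.15, SE 0.45, edgeR adjusted p = 0.184). The groups did not overlap in any of these 4. Over all 14 tested cyclins and inhibitors 7 had a higher and 7 a lower value.

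**Figure D3:**
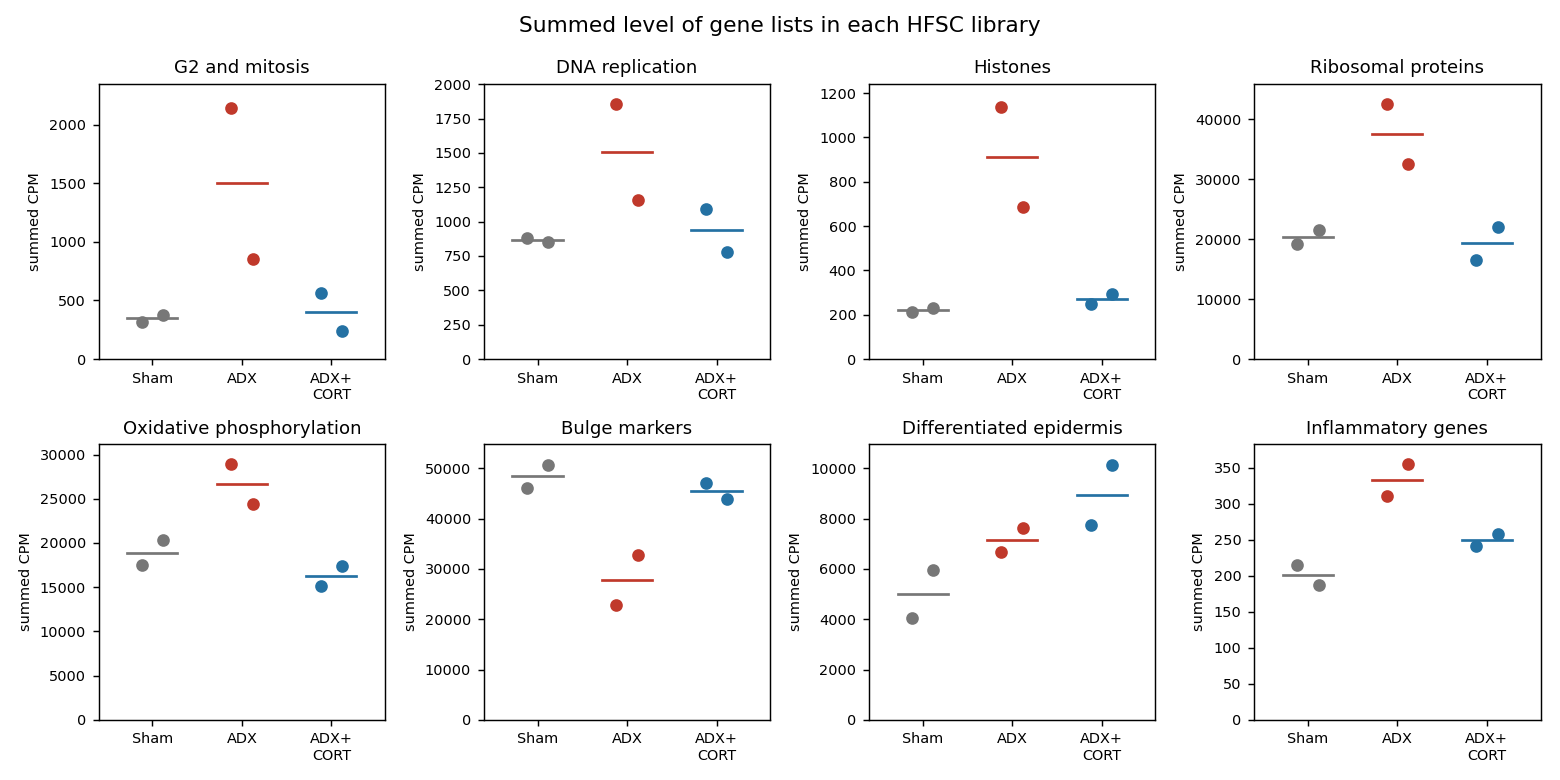
Summed CPM of the tested members of 8 gene lists (y axes, linear, starting at 0) in each library, with a line at the mean of the 2 libraries of a group. Both ADX libraries exceed both ADX+CORT libraries in the sums of G2 and mitosis, histones, ribosomal proteins, oxidative phosphorylation, DNA replication and inflammatory genes, and lie below them in the sums of bulge markers and differentiated epidermis.

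Ribosomal protein genes were lower in ADX+CORT without exception. Of 84 genes, 81 were tested, and all 81 had a lower value, with a median log2 fold change of −1.08. In 80 both ADX+CORT libraries lay below both ADX libraries, against 25.8% of all genes tested, and DESeq2 called 75 lower. Rpl37a, of the large subunit, stood at 779.6 and 428 CPM in ADX and 178 and 223 CPM in ADX+CORT (log2 fold change −1.59, SE 0.28, edgeR adjusted p = 0.0573), and Rps15a, of the small subunit, at 176 and 118 CPM in ADX and 51.8 and 61.6 CPM in ADX+CORT (log2 fold change −1.38, SE 0.25, edgeR adjusted p = 0.0573). Summed over the list, ADX held 42494 and 32478 CPM and ADX+CORT 16612 and 22010 CPM. Sham held 19206 and 21470.5 CPM, within the ADX+CORT range. Genes for the respiratory chain and ATP synthase were lower in 66 of 77 tested and higher in 10, with a median of −0.81. DESeq2 called 46 of them lower and none higher. Cox5b, of cytochrome c oxidase, stood at 476 and 341 CPM in ADX and 140 and 173 CPM in ADX+CORT (log2 fold change −1.38, SE 0.26, edgeR adjusted p = 0.0573), and Uqcr10, of the cytochrome bc1 complex, at 585 and 465 CPM in ADX and 207 and 259 CPM in ADX+CORT (log2 fold change −1.17, SE 0.24, edgeR adjusted p = 0.0573). Ndufaf2, an assembly factor of complex I, stood at 47.5 and 41.6 CPM in ADX and 15.7 and 15.4 CPM in ADX+CORT (log2 fold change −1.52, SE 0.27, edgeR adjusted p = 0.0573). In these 5 genes the ADX+CORT libraries lay below the ADX libraries without overlap.

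Many genes of these lists are short, and short genes were lower as a class. The tested genes were divided by summed exon length into 5 bins of about equal size. In the bin of 158 to 1970 bases the median log2 fold change was −0.44, and it was 0.02, 0.16, 0.15 and 0.05 in the bins of longer genes. Of 760 genes of up to 1000 bases outside the ribosomal, respiratory and histone lists, 580 were lower, with a median of −0.70. An offset for length and GC content within each library, added after the data were seen, changed the median of the ribosomal list to −0.71, that of the respiratory list to −0.28, and left that of the mitotic list at −1.996. The median length was 1586 bases in the ribosomal list, 1485 in the respiratory list, 477 in the histone list and 4314 in the mitotic list. The offset also moved single genes. Of 109 genes named in the text whose groups did not overlap and that have an offset value, 30 moved by over 1.5 times, all toward 0 and none past it. Among short genes, Rpl37a was at −0.62 with the offset, Uqcr10 at −0.28, Ndufaf2 at −0.52, Hist1h2bc at −0.96 and Hist1h1e at −0.94. Among higher genes, Axl was at 0.71, Gas6 at 0.33, Vdr at 0.44, Lhx2 at 0.325 and Sox9 at 0.23. In the adhesion and matrix lists Itgb4 was at 0.46, Lamb2 at 0.75, Lamb3 at 0.42, Col6a1 at 0.58 and Timp2 at 0.56. Ccnd3 was at 0.40, Rfc4 at −1.18, Pik3ip1 at 0.55, Irs2 at 0.53, Acsbg1 at 0.35, Nkd1 at 0.62, Jag2 at 0.53, Fgfr3 at 0.498 and Hspe1 at −0.63. The others, Mt1, Mt2, Ccl2, Csf1, Ifitm3 and Ifi27l2a, have their values below. The part of gene length in the ribosomal, respiratory and histone values was not tested beyond this offset.

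**Figure D4:**
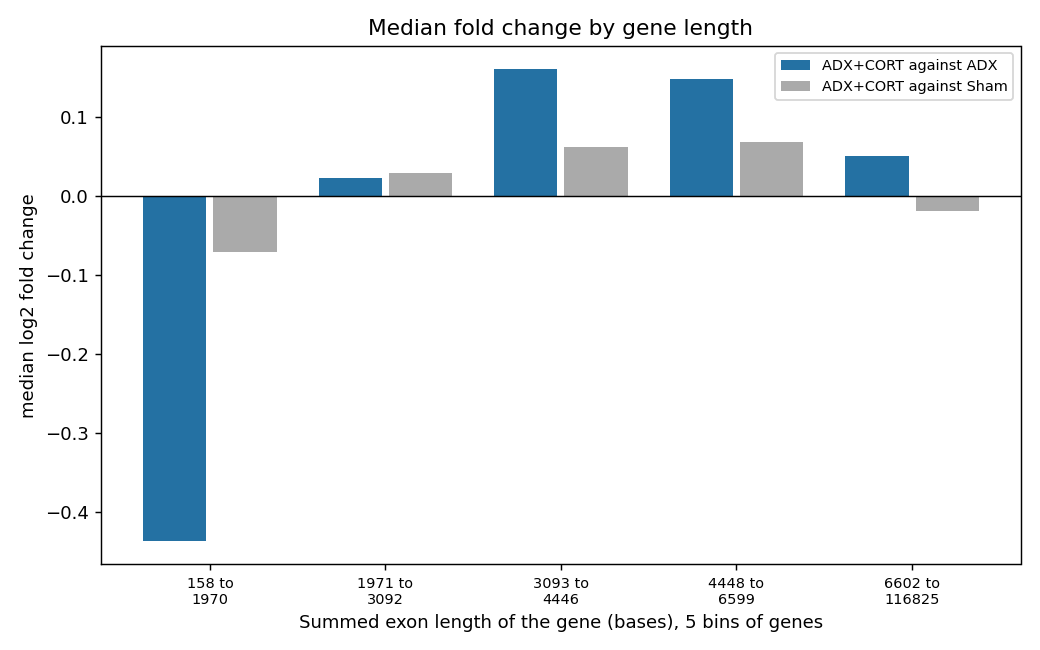
Median log2 fold change (y axis) of the tested genes in 5 bins of summed exon length in bases (x axis), for ADX+CORT against ADX in blue and ADX+CORT against Sham in grey. The bin of shortest genes has −0.44 against ADX and −0.07 against Sham. Both comparisons use the same ADX+CORT libraries.

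Genes that mark the quiescent bulge were higher with corticosterone. Of 15 bulge markers, 13 had a higher and 2 a lower value, with a median of 0.36, and in 8 the groups did not overlap, all higher, which was so for 26.7% of all genes tested. DESeq2 called 4 higher and none lower. Cd34, the surface protein by which bulge cells are sorted, stood at 767 and 1493 CPM in ADX and 2469 and 2268 CPM in ADX+CORT (log2 fold change 1.07, SE 0.29, edgeR adjusted p = 0.0744). Krt15, a keratin of bulge and basal cells, stood at 11439 and 19408 CPM in ADX and 26932 and 27887 CPM in ADX+CORT (log2 fold change 0.83, SE 0.29, edgeR adjusted p = 0.145). In both genes ADX replicate 1 was the lowest library, and Sham, with 2527 and 2350.3 CPM for Cd34 and 26681 and 32586 CPM for Krt15, was close to ADX+CORT. Dkk3, a secreted protein of the Dickkopf family, had 285 and 554 CPM in ADX and 905 and 720.1 CPM in ADX+CORT (log2 fold change 0.95, SE 0.31, edgeR adjusted p = 0.116). Fgf18, a growth factor that the bulge secretes and that holds it in quiescence, had 16.8 and 36.9 CPM in ADX and 50.7 and 60.2 CPM in ADX+CORT (log2 fold change 1.04, SE 0.34, edgeR adjusted p = 0.116). Its level stayed under that of the Sham libraries, which held 83.00 and 86.9 CPM. The stem cell receptor gene Lgr5 overlapped between groups, with 178 and 239.7 CPM in ADX and 290.2 and 236 CPM in ADX+CORT (log2 fold change 0.33, SE 0.27, edgeR adjusted p = 0.551), and so did the integrin gene Itga6, with 198 and 219 CPM in ADX and 229 and 199 CPM in ADX+CORT (log2 fold change 0.04, SE 0.20, edgeR adjusted p = 0.96). Without ADX+CORT replicate 1 the median of the list was 0.17, and without ADX replicate 2 it was 0.55.

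Transcription factors of the bulge were higher in 9 of 13 and lower in 4, with a median of 0.31. Nfatc1, which keeps bulge cells quiescent, stood at 256 and 358 CPM in ADX and 760.1 and 612 CPM in ADX+CORT (log2 fold change 1.16, SE 0.28, edgeR adjusted p = 0.0684), and DESeq2 called it higher. Vdr, the vitamin D receptor, stood at 325 and 429.8 CPM in ADX and 693 and 556 CPM in ADX+CORT (log2 fold change 0.73, SE 0.25, edgeR adjusted p = 0.137) and was also called by DESeq2. Lhx2, a homeodomain factor of hair follicle progenitors, stood at 154 and 266 CPM in ADX and 380.1 and 362 CPM in ADX+CORT (log2 fold change 0.82, SE 0.34, edgeR adjusted p = 0.202), and Tbx1 at 275 and 299 CPM in ADX and 473 and 377 CPM in ADX+CORT (log2 fold change 0.57, SE 0.34, edgeR adjusted p = 0.392); neither was called. The groups of all 4 genes did not overlap. Sox9, required for the bulge lineage, had 445 and 448 CPM in ADX and 561 and 598 CPM in ADX+CORT (log2 fold change 0.38, SE 0.27, edgeR adjusted p = 0.484), also without overlap, while the values of Tcf7l1, a repressor of WNT target genes, overlapped at 34.6 and 42.3 CPM in ADX and 39.4 and 35.7 CPM in ADX+CORT (log2 fold change −0.03, SE 0.28, edgeR adjusted p = 0.975).

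The TAM receptors Tyro3, Axl and Mertk are receptor tyrosine kinases, and Gas6 and Pros1 are their ligands. Axl stood at 68.6 and 101 CPM in ADX and 199.7 and 164 CPM in ADX+CORT and Sham at 160.4 and 118 CPM. Its log2 fold change was 1.10 (SE 0.25, edgeR adjusted p = 0.06), and DESeq2 called it higher. Tyro3 stood at 15.6 and 18.7 CPM in ADX and 46.6 and 39.7 CPM in ADX+CORT (log2 fold change 1.33, SE 0.35, edgeR adjusted p = 0.0727) and was called by DESeq2 as well. Mertk stood at 46.3 and 45.6 CPM in ADX and 73.7 and 61.1 CPM in ADX+CORT (log2 fold change 0.55, SE 0.23, edgeR adjusted p = 0.206). The groups of the 3 receptors did not overlap, and each was higher in ADX+CORT. Gas6 in these epithelial cells stood at 248 and 239 CPM in ADX and 380.1 and 355 CPM in ADX+CORT (log2 fold change 0.59, SE 0.24, edgeR adjusted p = 0.206), again without overlap, whereas Pros1 was at 68.8 and 71.8 CPM in ADX and 85.1 and 58.6 CPM in ADX+CORT (log2 fold change 0.03, SE 0.32, edgeR adjusted p = 0.983) and overlapped. The sheddases Adam10 and Adam17, proteases that cut receptors of this family from the surface, had log2 fold changes of −0.20 and 0.29. Over the 7 genes 6 were higher and 1 lower, with a median of 0.55. With the offset for gene length and GC content the median was 0.34.

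Genes that glucocorticoids induce in many cells lay in both directions. Of 27 tested 15 were higher and 11 lower, Hif3a having no reads in these 4 libraries, and the median was 0.14. The groups did not overlap in 10 of them, 5 higher and 5 lower, against 26.7% and 25.8% of all genes tested. DESeq2 called 4 higher and 3 lower. Tsc22d3, which encodes the glucocorticoid-induced leucine zipper, stood at 74.5 and 248 CPM in ADX and 47.9 and 299.9 CPM in ADX+CORT (log2 fold change 0.11, SE 0.70, edgeR adjusted p = 0.965). Zbtb16, a zinc finger gene strongly induced by glucocorticoids in many cells, stood at 26.4 and 97.98 CPM in ADX and 37.7 and 119.5 CPM in ADX+CORT (log2 fold change 0.34, SE 0.55, edgeR adjusted p = 0.803), and the clock gene Per1 at 20.04 and 40.9 CPM in ADX and 29.1 and 57.2 CPM in ADX+CORT (log2 fold change 0.50, SE 0.43, edgeR adjusted p = 0.575). In all 3, replicate 1 was the low library and replicate 2 the high one in both groups. The spread within a group exceeded the difference between groups. The co-chaperone gene Fkbp5 was low throughout, at 1.97 and 9.36 CPM in ADX and 3.29 and 4.67 CPM in ADX+CORT (log2 fold change −0.52, SE 0.69, edgeR adjusted p = 0.743). Sgk1, the kinase gene whose promoter holds the response element printed above, stood at 219 and 354 CPM in ADX and 339 and 349 CPM in ADX+CORT (log2 fold change 0.26, SE 0.25, edgeR adjusted p = 0.615). This full element was found in 1 of the 24 listed genes with a window and in 3 of all 27025 genes (0.0111%).

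Members called by DESeq2 lay in both directions. Arrdc2, an arrestin-domain gene, stood at 6.47 and 14.98 CPM in ADX and 34.3 and 24.1 CPM in ADX+CORT (log2 fold change 1.44, SE 0.40, edgeR adjusted p = 0.0786), and Klf15, a metabolic transcription factor, at 12.5 and 25.9 CPM in ADX and 33.05 and 54.3 CPM in ADX+CORT (log2 fold change 1.18, SE 0.38, edgeR adjusted p = 0.115). Pik3ip1, an inhibitor of phosphoinositide 3-kinase, stood at 108 and 147 CPM in ADX and 234 and 256 CPM in ADX+CORT (log2 fold change 0.94, SE 0.23, edgeR adjusted p = 0.0684). These 3 and Irs2 (0.91) were the members that DESeq2 called higher. Metallothioneins, which bind zinc and are induced by glucocorticoids in many tissues, were lower instead. Mt1 stood at 2204 and 2059.5 CPM in ADX and 576 and 1005 CPM in ADX+CORT (log2 fold change −1.43, SE 0.32, edgeR adjusted p = 0.06), and Mt2 at 571 and 498 CPM in ADX and 117 and 209 CPM in ADX+CORT (log2 fold change −1.71, SE 0.34, edgeR adjusted p = 0.0573). Sham held 1334 and 1526 CPM for Mt1 and 280.4 and 362 CPM for Mt2, between both groups. Mt1, Mt2 and Timp3, an inhibitor of metalloproteases (−0.85), were the members called lower by DESeq2. With the length and GC offset the values of Mt1 and Mt2 were −0.59 and −0.86. The median of the list was −0.23 without ADX replicate 1, 0.79 without ADX replicate 2 and −0.25 without ADX+CORT replicate 2. Nr3c1 itself stood at 267 and 266 CPM in ADX and 388 and 319 CPM in ADX+CORT (log2 fold change 0.41, SE 0.24, edgeR adjusted p = 0.375), without overlap, and was higher in ADX+CORT.

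**Figure D5:**
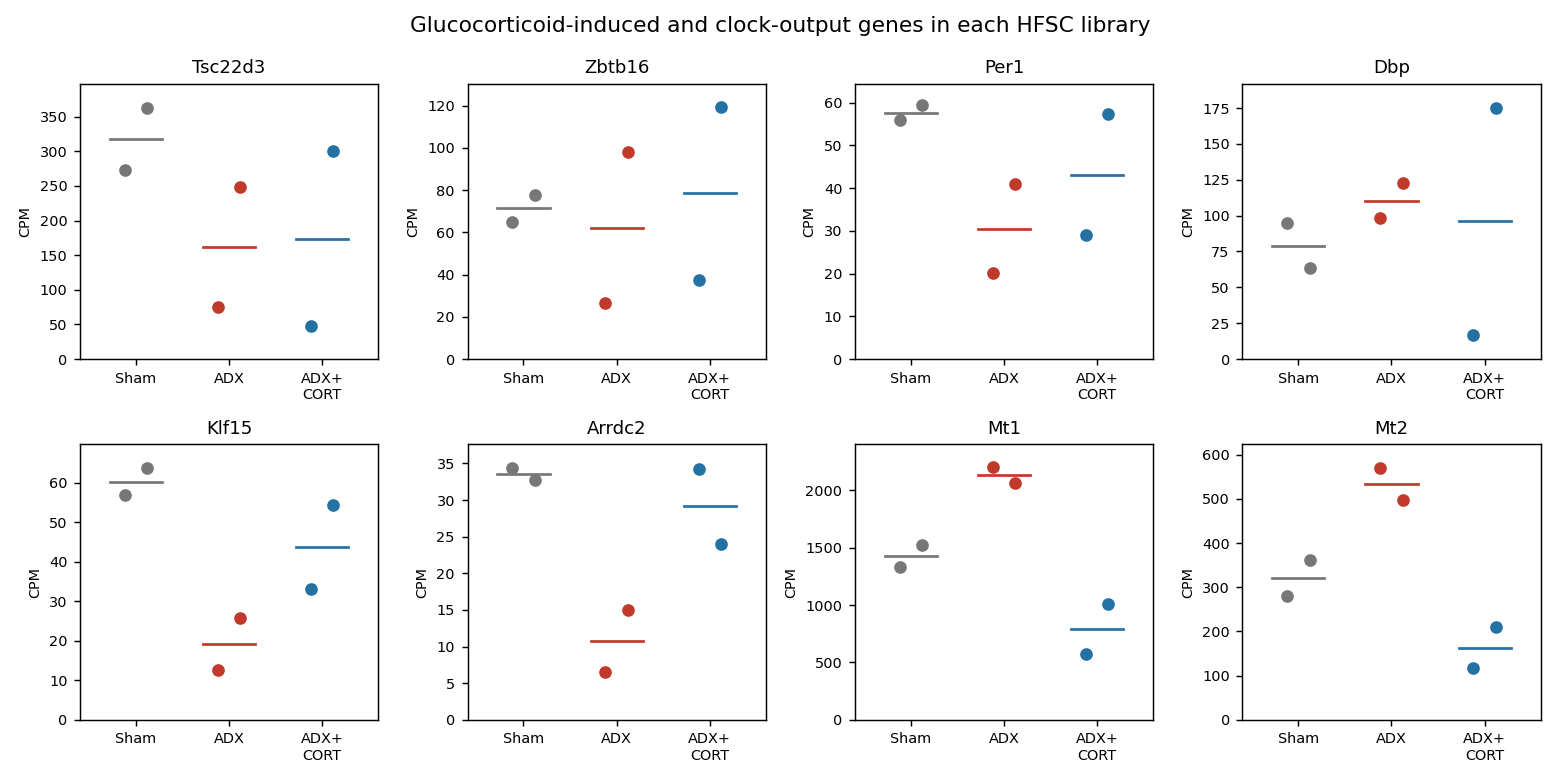
CPM of 8 glucocorticoid-induced or clock-output genes (y axes, linear, starting at 0) in the 6 libraries, each point a library and each line the mean of 2. Tsc22d3, Zbtb16, Per1 and Dbp differ more within the ADX+CORT group than between group means, Klf15 and Arrdc2 are higher in both ADX+CORT libraries, and Mt1 and Mt2 are lower in both.

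Circadian clock genes varied between the 2 ADX+CORT libraries. Dbp, a transcription factor driven directly by the clock, stood at 98.1 and 123 CPM in ADX and 17.1 and 175 CPM in ADX+CORT (log2 fold change −0.20, SE 0.74, edgeR adjusted p = 0.927), more than 10-fold apart within ADX+CORT. Per2 and Per3 had 1.64 and 11.4 CPM and 5.31 and 28.2 CPM in the 2 ADX+CORT libraries, with the lower value in replicate 1 in both. Npas2, a partner of the clock activator, stood at 7.10 and 5.44 CPM in ADX and 42.3 and 18.1 CPM in ADX+CORT (log2 fold change 2.27, SE 0.68, edgeR adjusted p = 0.0972), and DESeq2 called it higher, the only member of the list so called by it. Arntl, which encodes the core clock activator BMAL1, stood at 21.1 and 37.5 CPM in ADX and 76.2 and 46.2 CPM in ADX+CORT (log2 fold change 1.06, SE 0.37, edgeR adjusted p = 0.14). Neither gene overlapped between groups. Of 19 clock genes 9 were higher and 10 lower, with a median of −0.003. The groups did not overlap in 4 higher genes, Npas2 and Arntl among them, and in 4 lower ones. Among all genes tested this was so for 26.7% and 25.8%. The time of day at which cells were collected is not given in the sources used here, and its part in these values was not tested.

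Inflammatory genes that glucocorticoids repress in many cells were lower in 15 of 23 tested and higher in 8, with a median of −1.25. DESeq2 called 5 lower and none higher. Ccl20, a chemokine that attracts lymphocytes and dendritic cells, stood at 13.9 and 22.5 CPM in ADX and 1.06 and 0 CPM in ADX+CORT (log2 fold change −5.08, SE 1.16, edgeR adjusted p = 0.0639). Ptgs2, the inducible cyclooxygenase, stood at 44.2 and 25.3 CPM in ADX and 8.33 and 9.77 CPM in ADX+CORT (log2 fold change −1.94, SE 0.48, edgeR adjusted p = 0.0684), and the chemokine Ccl2 at 4.08 and 9.71 CPM in ADX and 1.75 and 2.55 CPM in ADX+CORT (log2 fold change −1.68, SE 0.50, edgeR adjusted p = 0.099). Their groups did not overlap. Il1b, which encodes the cytokine interleukin-1β, had 17 and 28 counts in ADX and 0 and 1 count in ADX+CORT, which is 53.6 times lower relative to depth (95% interval 9.13 to 2162, counting error only). The 8 higher genes did not follow, Icam1 and Csf1 among them (0.30 and 0.42). Il1rn, the interleukin-1 receptor antagonist, was lower by little, at −0.21, and its groups overlapped. Without ADX replicate 1 the median of the list was −0.29, and without ADX+CORT replicate 2 it was −2.09. With the length and GC offset Ccl2 was at −0.92 and Csf1 at 0.079. Of 29 interferon-response genes tested 12 were higher and 17 lower, and Ifitm3, a membrane protein that restricts viral entry, stood at 909.7 and 679.9 CPM in ADX and 352 and 456 CPM in ADX+CORT (log2 fold change −0.98, SE 0.28, edgeR adjusted p = 0.0903). With the length and GC offset Ifitm3, a gene of 678 bases, was at −0.13.

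Markers of leukocytes, which could carry such RNA, are given beside this list. Lyz2, the lysozyme of myeloid cells, stood at 32.5 and 25.2 CPM in ADX and 4.88 and 8.36 CPM in ADX+CORT (log2 fold change −2.12, SE 0.32, edgeR adjusted p = 0.0573), while Csf1r, a receptor of macrophages, had 2 and 0 counts in ADX and 86 and 76 in ADX+CORT, 68.1 times higher relative to depth (95% interval 18.5 to 567). Nkg7, of natural killer and cytotoxic T cells, had 39 and 10 counts in ADX and none in ADX+CORT, at least 19.4-fold lower against 3 counts over the group. Over 13 tested leukocyte genes 5 were higher and 8 lower. Their sum was 150 and 237 CPM in ADX and 91.8 and 178 CPM in ADX+CORT, which overlap, and Itgax and Ms4a1 had no reads in these 4 libraries. The part of leukocyte RNA in the inflammatory values was not tested.

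Genes of the differentiated epidermis were higher with corticosterone. Of 21 tested 15 had a higher and 6 a lower value, with a median of 0.73, and DESeq2 called 5 higher and none lower. Cdsn, which encodes corneodesmosin, an adhesion protein of the cornified layer, stood at 16.5 and 43.7 CPM in ADX and 171 and 154 CPM in ADX+CORT (log2 fold change 2.43, SE 0.43, edgeR adjusted p = 0.0573). Lor, loricrin, the main protein of the cornified envelope, stood at 14.2 and 21.1 CPM in ADX and 93.3 and 67.2 CPM in ADX+CORT (log2 fold change 2.18, SE 0.37, edgeR adjusted p = 0.0573), and Ivl, involucrin, at 26.8 and 58.8 CPM in ADX and 141 and 116 CPM in ADX+CORT (log2 fold change 1.58, SE 0.39, edgeR adjusted p = 0.0691). Dsc1, a desmosomal cadherin of upper layers, stood at 33.05 and 37.4 CPM in ADX and 109 and 101 CPM in ADX+CORT (log2 fold change 1.57, SE 0.53, edgeR adjusted p = 0.13). The groups of these genes did not overlap. Sham libraries lay between the groups for Cdsn, at 60.7 and 87.6 CPM, and for Lor, at 49.3 and 50.99 CPM. The suprabasal keratin Krt10 was at 988 and 1118 CPM in ADX and 1363 and 1758 CPM in ADX+CORT (0.57), but Krt1, its partner, overlapped at 571 and 665 CPM in ADX and 471 and 637 CPM in ADX+CORT (log2 fold change −0.16, SE 0.48, edgeR adjusted p = 0.907), as did Krtdap and Sbsn (−0.01 and 0.13). These genes sum to 6679 and 7649 CPM in ADX and 7745 and 10129 CPM in ADX+CORT. More cells of the upper epidermis in the samples and a higher level within HFSC cannot be told apart.

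Dgat2, which completes triglyceride synthesis, had one of the smallest p-values of the comparison. It stood at 59.8 and 76.9 CPM in ADX and 193 and 214 CPM in ADX+CORT (log2 fold change 1.58, SE 0.25, edgeR adjusted p = 0.0573) and was called higher by DESeq2. The sebaceous gland markers, Dgat2 among them, were divided, with 9 of 15 tested higher, 6 lower and a median of 0.31. Acsbg1, an acyl-CoA synthetase, was at 80.4 and 126 CPM in ADX and 168 and 182 CPM in ADX+CORT (log2 fold change 0.76, SE 0.28, edgeR adjusted p = 0.166), and Awat1, a wax synthase of the sebaceous gland, at 7.03 and 15.6 CPM in ADX and 1.70 and 4.78 CPM in ADX+CORT (log2 fold change −1.80, SE 1.11, edgeR adjusted p = 0.407). The median was −0.78 without ADX+CORT replicate 2 and 0.91 without ADX+CORT replicate 1.

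Adhesion to the basement membrane and the matrix formed another group with higher levels. Of 22 integrin, laminin and hemidesmosome genes 17 were higher and 5 lower (median 0.40), and DESeq2 called 4 higher and none lower. Itgb4, the β4 integrin of hemidesmosomes, stood at 219 and 299 CPM in ADX and 475 and 483 CPM in ADX+CORT (log2 fold change 0.89, SE 0.24, edgeR adjusted p = 0.0744). Lamb2 and Lamb3, laminin chains, had log2 fold changes of 1.21 and 0.77, each without overlap. In contrast Itgb1, the β1 integrin, was at −0.01. With the length and GC offset the median of the list was 0.09, and it was 0.23 without ADX replicate 1 and 0.22 without ADX+CORT replicate 2. Of 28 matrix genes 19 were higher and 9 lower (median 0.42), with 7 called higher by DESeq2 and 1 lower. Col6a1 and Col6a2, chains of collagen VI, stood at 203 and 294 CPM in ADX and 477 and 539 CPM in ADX+CORT (log2 fold change 1.03, SE 0.26, edgeR adjusted p = 0.0714) and at 58.2 and 77.3 CPM in ADX and 128 and 166 CPM in ADX+CORT (log2 fold change 1.12, SE 0.25, edgeR adjusted p = 0.062). Timp2, an inhibitor of metalloproteases, stood at 446 and 673 CPM in ADX and 1137 and 972 CPM in ADX+CORT (log2 fold change 0.91, SE 0.24, edgeR adjusted p = 0.0724). Vcan, versican, was the member called lower, with 62 and 54 counts in ADX against 6 and 2 in ADX+CORT. The matrix median was 0.86 without ADX replicate 2 and 0.24 without ADX+CORT replicate 2. Among fibroblast markers Col1a2 stood at 32.2 and 34.98 CPM in ADX and 55.6 and 98.1 CPM in ADX+CORT (log2 fold change 1.19, SE 0.32, edgeR adjusted p = 0.0741). Pdgfra had no reads in ADX and had reads in both ADX+CORT libraries. Of the 13 tested, 9 were higher and 4 lower. They summed to 485 and 608 CPM in ADX and 624 and 782 CPM in ADX+CORT. Other dermal markers differed. Of 9 pericyte and smooth muscle markers 4 were higher and 5 lower (median −1.24). Their sums overlapped, at 238 and 346 CPM in ADX and 264 and 320 CPM in ADX+CORT. Of 7 dermal papilla markers 1 was higher and 6 lower (median −0.91).

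For the WNT pathway 24 of 33 tested genes were higher and 9 lower, and Dkk3 was the 1 gene that DESeq2 called. Nkd1, a feedback inhibitor of the pathway, was at 17.02 and 24.3 CPM in ADX and 44.7 and 38.2 CPM in ADX+CORT (log2 fold change 1.0029, SE 0.34, edgeR adjusted p = 0.132). In the BMP pathway, which holds bulge cells in quiescence, 14 of 22 were higher and 8 lower with no DESeq2 call. Its ligands Bmp2 and Bmp6 were at 12.8 and 16.4 CPM in ADX and 34.3 and 24.3 CPM in ADX+CORT (log2 fold change 1.0019, SE 0.36, edgeR adjusted p = 0.157) and at 3.31 and 3.86 CPM in ADX and 8.86 and 8.80 CPM in ADX+CORT (log2 fold change 1.30, SE 0.45, edgeR adjusted p = 0.139), without overlap, while its target Id3 was lower, at 2534 and 1819 CPM in ADX and 1174 and 1384 CPM in ADX+CORT (log2 fold change −0.77, SE 0.30, edgeR adjusted p = 0.182). For NOTCH 11 of 14 were higher and 3 lower. The ligand Jag2 stood at 66.2 and 139.8 CPM in ADX and 190.3 and 229 CPM in ADX+CORT (log2 fold change 1.02, SE 0.32, edgeR adjusted p = 0.109) and the target Hes1 at 111 and 50.4 CPM in ADX and 39.6 and 38.8 CPM in ADX+CORT (log2 fold change −1.04, SE 0.34, edgeR adjusted p = 0.123), and DESeq2 called the first higher and the second lower. In the FGF list 14 of 19 were higher, with Fgfr3, a receptor, at 81.3 and 113 CPM in ADX and 156 and 204 CPM in ADX+CORT (log2 fold change 0.89, SE 0.28, edgeR adjusted p = 0.111). Tgfbi, a matrix protein induced by TGFβ, was at 752 and 893 CPM in ADX and 1828 and 1441 CPM in ADX+CORT (log2 fold change 0.99, SE 0.27, edgeR adjusted p = 0.0756) and was called higher by DESeq2.

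Of 18 heat shock genes 5 were higher and 13 lower, with a median of −0.21. In 3 higher and 8 lower the groups did not overlap, against 26.7% and 25.8% of all genes tested. The inducible cytosolic chaperones Hspa1a and Hspa1b stood at 18.4 and 35.1 CPM in ADX and 117 and 50.2 CPM in ADX+CORT (log2 fold change 1.64, SE 0.40, edgeR adjusted p = 0.0684) and at 80.2 and 108 CPM in ADX and 314 and 182 CPM in ADX+CORT (log2 fold change 1.40, SE 0.30, edgeR adjusted p = 0.0573). The mitochondrial chaperonins Hspd1 and Hspe1 stood at 139 and 99.6 CPM in ADX and 63.8 and 65.5 CPM in ADX+CORT (log2 fold change −0.88, SE 0.24, edgeR adjusted p = 0.0766) and at 68.1 and 52.5 CPM in ADX and 25.4 and 30.4 CPM in ADX+CORT (log2 fold change −1.11, SE 0.26, edgeR adjusted p = 0.0642). DESeq2 called the first pair higher and the second lower, and no group overlapped. Sham held 85.2 and 80.5 CPM for Hspa1b, near ADX. Hspa1a and Hspa1b are near-identical copies, and the share of each in the counts is uncertain.

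Markers of the inner root sheath and hair shaft, the products of a growing follicle, were lower in 8 of 10 tested and higher in 2. Krt71, of the inner sheath, stood at 48.9 and 6.49 CPM in ADX and 4.09 and 3.75 CPM in ADX+CORT (log2 fold change −2.82, SE 0.76, edgeR adjusted p = 0.0744). Krt35, of the shaft, had 138 and 76 counts in ADX and 1 and 0 counts in ADX+CORT, 255 times lower relative to depth (95% interval 45.2 to 10105). DESeq2 called 3 lower and none higher. The list summed to 134 and 29.8 CPM in ADX and to 36.0 and 39.2 CPM in ADX+CORT, so that ADX replicate 2 lay below both ADX+CORT libraries and only ADX replicate 1 lay above them. Without the latter the median of −2.56 became −0.12. The 5 red cell markers summed to 57.4 and 102 CPM in ADX and 5.09 and 53.3 CPM in ADX+CORT.

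Several of the smallest p-values fell outside these lists. Skiv2l, an RNA helicase of the SKI complex, stood at 24.3 and 29.9 CPM in ADX and 78.9 and 73.8 CPM in ADX+CORT (log2 fold change 1.49, SE 0.22, edgeR adjusted p = 0.0573). Arvcf, a catenin of the p120 family, was at 85.1 and 117 CPM in ADX and 257 and 253 CPM in ADX+CORT (log2 fold change 1.34, SE 0.22, edgeR adjusted p = 0.0573), and Adck3, which acts in coenzyme Q synthesis, at 59.5 and 78.7 CPM in ADX and 248 and 226 CPM in ADX+CORT (log2 fold change 1.78, SE 0.31, edgeR adjusted p = 0.0573). Ipo13, Dirc2, Slc35e4 and St3gal2 had log2 fold changes of 1.51, 1.52, 1.38 and 1.59. Among lower genes, Mfap2, a microfibril protein, stood at 115 and 103 CPM in ADX and 33.6 and 32.2 CPM in ADX+CORT (log2 fold change −1.72, SE 0.27, edgeR adjusted p = 0.0573). Arhgdib was at 149 and 156 CPM in ADX and 44.9 and 61.1 CPM in ADX+CORT (log2 fold change −1.52, SE 0.24, edgeR adjusted p = 0.0573), and Ifi27l2a, an interferon-induced gene, at 50.6 and 33.2 CPM in ADX and 13.5 and 10.1 CPM in ADX+CORT (log2 fold change −1.83, SE 0.32, edgeR adjusted p = 0.0573). With the length and GC offset the value of Ifi27l2a was −0.74. Each of these 10 genes was called by DESeq2 and had no overlap between groups.

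Set beside Sham, whose libraries enter both comparisons, the ADX+CORT values lay nearer than the ADX values for several lists. The median log2 fold change of the mitotic list was 0.21 in ADX+CORT against Sham and 2.18 in ADX against Sham. It was −0.10 and 0.97 for ribosomal proteins, −0.20 and 0.62 for the respiratory list, and 0.30 and 2.58 for histones. Bulge markers had −0.07 and −0.61, and inflammatory genes 0.00 and 1.35. For differentiated epidermis, as for 13 other lists, the order was the opposite, with 0.80 in ADX+CORT and −0.16 in ADX. There, 16 of 21 genes lay above both Sham libraries in both ADX+CORT libraries, as did 21.5% of all genes tested. TAM genes (0.34 and −0.27), matrix genes (0.17 and −0.03) and sebaceous genes (1.90 and 1.30) also had the larger distance in ADX+CORT. Over the 42 lists the median was nearer to Sham in ADX+CORT for 28 and farther for 14. Over all genes tested, edgeR called 0.0% in ADX+CORT against Sham and 0.295% in ADX against Sham. Of the 178 genes named by rule, it called 0 in the first comparison and 14 in the second. The rule chose these genes on the ADX and ADX+CORT values, so nothing is read from these counts, and the 14 became 0 without ADX replicate 1, Sham replicate 1 or Sham replicate 2 and 33 without ADX replicate 2. The difference of distances to Sham was not tested, since it is the comparison of ADX+CORT with ADX itself.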

How the data were processed

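RNA from hair follicle stem cells was made into cDNA with SMART-Seq v4 and into libraries with Nextera XT, per the labels' protocols. Per the submitters' processing notes, Trim Galore 0.4.1, STAR 2.5.3 and DESeq2 1.22.2 were used with mm10. Per the file headers, the authors counted reads with featureCounts 1.6.1 over exons by gene name, at a minimum mapping quality of 30 and with no strand setting, and deposited raw counts; without strand, overlapping genes cannot be told apart. Gene names turned into dates in 2 files were restored by coordinates (27 names in each).

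Counts were fitted with edgeR 4.0.16 (R 4.3.3; TMM scaling, filterByExpr, quasi-likelihood test, Benjamini-Hochberg adjustment, threshold 0.05) over all 10 stem cell libraries in 5 groups (Sham, ADX, ADX+CORT and the Control and GR_KO groups of the deletion experiment), leaving 5 residual degrees of freedom. The labels give 6 days of tamoxifen for the Control and GR_KO libraries, which enter the shared estimate of spread. CPM values are scaled by TMM. DESeq2 1.42.0, another scaling, no filter, smaller sets of libraries, a replicate block and leaving out each library were alternatives. An offset for gene length and GC content (natural splines, 4 degrees of freedom; GC known for 97% of genes) was added after seeing the data. The fit was tested on simulated data. Replicates differed beyond sampling noise and are separate libraries.

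The comparison and the 42 gene lists (872 genes, 868 of them in the files, 813 tested) were chosen with earlier results of these data known. Genes named are up to 10 per direction with the smallest p and up to 15 with the largest change among those called, provided the groups did not overlap and the higher one averaged 5 CPM or more, a fixed set of targets, and per list the called members or, where fewer than 4 were called, the 4 with the smallest p. Other genes were named after their values were seen, among them Ttk, Bub1, Ndc80, Mki67, the MCM genes, Stmn1, Arrdc2, Klf15, Irs2, Dbp, Krt1, Krt10 and Awat1. Intervals and floors cover counting error only.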

Additional observations from a re-analysis of the deposited data

How the results depend on the processing

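No gene passed in edgeR with all 10 libraries, with median-of-ratios scaling, with only the 2 groups compared (smallest edgeR adjusted p 0.0644), with the length and GC offset, or without ADX replicate 1, ADX+CORT replicate 1 or ADX+CORT replicate 2. Without ADX replicate 2, 549 passed (239 higher and 310 lower), so leaving out a library gave 0 to 549. DESeq2 called 1278 (567 higher and 711 lower), edgeR without a filter on low counts 1309 (613 and 696), and edgeR on the 6 surgery libraries 884 (394 and 490); the cause was not tested. Leave-one-out counts at an unadjusted p under 0.05 were 722 to 1601 higher and 756 to 1453 lower. Of the 178 genes named by rule, 89 were called by DESeq2, 95 without the filter, 66 on the surgery libraries and 0 to 64 with a library left out. Lists with a called member numbered 32, 36, 24 and 0 to 22 in that order. Against Sham, ADX+CORT had 5 named genes called by DESeq2, 14 without the filter and 0 to 1 with a library left out, and ADX had 62, 67 and 0 to 33. Apart from the fixed targets, the rule chose the 178 genes on the values of these same libraries, so nothing is read from their counts. Among all genes tested, DESeq2 called 3.72% higher and 4.67% lower in ADX+CORT against ADX. On the surgery libraries edgeR called 2.79% higher and 3.47% lower. Over all genes tested, deviations of libraries with the same replicate number were nearly uncorrelated between groups (correlations −0.020, 0.016 and 0.041). These correlations cover all genes at once and cannot show an order shared by a few. In Tsc22d3, Zbtb16 and Per1 replicate 1 was lower than replicate 2 in both ADX and ADX+CORT. With the replicate block edgeR called 0 genes, and 1555 were higher and 1466 lower at an unadjusted p under 0.05. Under the block Tsc22d3 was at −0.088.

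List medians without the filter on low counts were taken over genes that had passed it, so they cannot show its effect. Of 462 list medians recomputed over 11 alternatives, 412 lay within 1 SD of the differences between single libraries and 50 outside it. That SD is wide for many lists: 138 medians were over 1.5 times apart from the value reported or of opposite sign, 94 of them within the SD, and 15 of 42 lists took the opposite sign under at least 1 alternative. The inflammatory median was −0.79 with only the 2 groups, −0.84 with the length and GC offset and −2.09 to −0.29 with a library left out. With the offset it was 0.088 for integrins and laminins, −0.71 for ribosomal proteins, −0.28 for the respiratory list and −1.04 for histones. With a library left out it was 0.22 to 0.54 for integrins and laminins, 0.24 to 0.86 for matrix, −0.99 to −0.68 for the respiratory list and −2.69 to −1.21 for histones. Leaving out 1 library at a time reversed the sign of genes whose groups overlapped, with log2 fold changes from −0.50 to 0.015 for Adam10, −0.087 to 0.55 for Adam17, −2.72 to 0.67 for Dbp, −1.23 to 0.999 for Fkbp5, −0.54 to 0.033 for Il1rn, −0.068 to 0.10 for Itga6 and −0.18 to 0.18 for Itgb1. It gave −0.42 to 0.044 for Krt1, −0.41 to 0.29 for Krtdap, −0.92 to 0.31 for Mcm2, −1.30 to 0.06 for Mcm3, −0.60 to 0.52 for Mcm5, −0.58 to 0.012 for Mcm6 and −0.47 to 0.46 for Mcm7. The ranges were −0.098 to 1.09 for Per1, −0.26 to 0.25 for Pros1, −0.13 to 0.34 for Sbsn, −0.043 to 0.64 for Sgk1, −0.17 to 0.10 for Tcf7l1, −1.78 to 1.21 for Tsc22d3 and −0.75 to 1.56 for Zbtb16. With the length and GC offset the signs of Itgb1, Krtdap, Sbsn, Tsc22d3, Zbtb16 also reversed, at 0.017, 0.91, −0.22, −0.034, −0.011 respectively, and the cause was not tested. The biological coefficient of variation over the 10 libraries was 38.7%. Genes with few counts, such as Il1b and Krt35, have wide counting intervals.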

Other observations

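Further genes, named after their values were seen, were called by DESeq2 and had no overlap between groups. Chat, which encodes the enzyme that makes acetylcholine, stood at 71.4 and 130.4 CPM in ADX and 277 and 291 CPM in ADX+CORT (log2 fold change 1.49, SE 0.28, edgeR adjusted p = 0.0573), and Sham at 291 and 303 CPM. Slc14a1, a urea transporter, stood at 4.85 and 5.26 CPM in ADX and 17.1 and 19.5 CPM in ADX+CORT (log2 fold change 1.85, SE 0.34, edgeR adjusted p = 0.0573), with Sham at 21.4 and 20.98 CPM. Both genes were higher in ADX+CORT, close to the Sham levels.

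Several secreted factors were lower. Edn2, the peptide endothelin 2, stood at 45.8 and 31.1 CPM in ADX and 9.13 and 7.55 CPM in ADX+CORT (log2 fold change −2.21, SE 0.49, edgeR adjusted p = 0.0597). Epgn, epigen, a ligand of the epidermal growth factor receptor, stood at 13.7 and 13.04 CPM in ADX and 2.87 and 2.39 CPM in ADX+CORT (log2 fold change −2.35, SE 0.69, edgeR adjusted p = 0.0913), and Lgals1, the lectin galectin 1, at 446 and 246 CPM in ADX and 67.1 and 124 CPM in ADX+CORT (log2 fold change −1.86, SE 0.41, edgeR adjusted p = 0.0578).

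The last 4 genes are known from the epidermal barrier and were picked for their higher values, whereas 6 of 21 genes in the list of differentiated epidermis were lower. Alox12e, an epidermal lipoxygenase, stood at 119 and 207 CPM in ADX and 384 and 543 CPM in ADX+CORT (log2 fold change 1.51, SE 0.30, edgeR adjusted p = 0.0573), and Sdr9c7, which acts in the synthesis of barrier ceramides, at 0.703 and 1.17 CPM in ADX and 8.70 and 6.35 CPM in ADX+CORT (log2 fold change 2.99, SE 0.68, edgeR adjusted p = 0.0624). Hal, which turns histidine into urocanate in the upper epidermis, stood at 48.5 and 37.9 CPM in ADX and 158 and 124 CPM in ADX+CORT (log2 fold change 1.71, SE 0.37, edgeR adjusted p = 0.0575), and Krt78, a keratin of differentiating cells, at 19.8 and 19.7 CPM in ADX and 59.5 and 97.1 CPM in ADX+CORT (log2 fold change 1.99, SE 0.50, edgeR adjusted p = 0.07).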
